A study of Mus musculus with 6 samples.

Results

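The ribosomal RNAs of the mouse mitochondrial ribosome are 12S rRNA, the RNA of its small subunit, and 16S rRNA, the RNA of its large subunit. They are encoded by mt-Rnr1 and mt-Rnr2, and these 2 genes were taken by name from the 47729 genes counted in RNA from extracellular vesicles (EVs) of WEHI-231 cells, a mouse splenic B cell lymphoma line. All 3 isotype samples came from cells treated for 1 h with 10 µg/mL of isotype control antibody, and all 3 anti-CD24 samples from cells treated for 1 h with 10 µg/mL of the rat monoclonal antibody M1/69, which binds CD24, a glycosylphosphatidylinositol-anchored surface protein. In both groups a secondary antibody at 5 µg/mL had been bound to the first beforehand, each stimulation used 500000 cells, the medium had been depleted of vesicles, and EVs were captured with the Vn96 peptide. Every sample was thus the EV RNA of 1 cell line, with no genetic change named in the labels, sequenced on an IonTorrent PGM without fragmentation or rRNA depletion.

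The mitochondrial RNA polymerase copies the circular mitochondrial genome into long precursors that hold many genes. The tRNAs that stand between the other RNAs are cut out of the precursor at both ends, which frees the rRNAs and mRNAs. The 2 rRNAs then join proteins that are encoded in the nucleus and imported, and the ribosomes so formed translate the mRNAs of the mitochondrial genome.

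In GRCm38 mt-Rnr1 (ENSMUSG00000064337) occupies chrM:70-1024 on the plus strand, a single exon of 955 bases with 35.8% G and C, and mt-Rnr2 (ENSMUSG00000064339) occupies chrM:1094-2675 on the same strand, a single exon of 1582 bases with 35.4% G and C. The tRNA gene mt-Tv, for valine, fills chrM:1025-1093 and adjoins both rRNA genes with no base between. The leucine tRNA gene mt-Tl1 begins directly after 16S at chrM:2676-2750, and the phenylalanine tRNA gene mt-Tf stands before 12S at chrM:1-68. The rRNA borders with mt-Tv and mt-Tl1 are printed here, and that between mt-Tf and 12S is not. Borders matter because a read that crosses one touches 2 genes and was counted for neither under the counting rule used. Lower case letters are rRNA and capitals are tRNA, 5′ to 3′ on the plus strand. The first line is chrM:995-1123 and the second chrM:2646-2750, each with 30 bases of rRNA beside a tRNA.
12S end, mt-Tv and 16S start: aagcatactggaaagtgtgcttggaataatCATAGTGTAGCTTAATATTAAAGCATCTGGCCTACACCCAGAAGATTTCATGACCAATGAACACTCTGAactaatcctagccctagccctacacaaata
16S end and mt-Tl1: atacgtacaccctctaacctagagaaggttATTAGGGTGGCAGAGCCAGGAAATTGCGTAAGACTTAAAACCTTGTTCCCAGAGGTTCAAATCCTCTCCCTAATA

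Each library held between 166129 and 794185 gene counts, of which 15626 to 112042 lay outside the rRNA and ribozyme biotypes of nuclear genes. The first number of each range belongs to isotype replicate 2, the shallowest library. Between 2743 and 21834 reads per library touched more than 1 gene and were assigned to none, and the files do not say which genes these reads touched. All isotype libraries carried barcode 1 and all anti-CD24 libraries barcode 2, so barcode and condition cannot be told apart. RNA of B cell genes was sparse: 11 of 13 B lineage markers had a count, with 68 counts in all, 0 to 24 per isotype library and 7 to 15 per anti-CD24 library, and Ptprc was at 0. T cell markers gave 1 count in 1 of 5 genes and myeloid markers 8 counts in 3 of 6 genes, from 0 in every isotype library to 4 in anti-CD24 libraries. Hemoglobin genes gave 99 counts, all in anti-CD24 replicate 1, and the other 4 of 8 erythroid and platelet markers were at 0. Whether these sparse counts have a part in the results was not tested, and values without anti-CD24 replicate 1 are given where they matter.

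Both rRNAs were found in all 6 libraries at levels far above most genes. The 12S counts were 1614, 1198 and 5371 in isotype replicates 1, 2 and 3, and 2888, 6775 and 4357 in anti-CD24 replicates 1, 2 and 3. The 16S counts were 3255, 2290 and 13585 in the isotype libraries and 7450, 17029 and 7455 in the anti-CD24 libraries, in the same order. These raw counts followed library depth in part, and isotype replicate 2 was lowest for both genes. By raw count 16S was the first gene outside the rRNA and ribozyme biotypes in anti-CD24 replicate 2 and held rank 2 in each of the other 5 libraries. By the same ordering 12S held ranks 4, 4 and 3 in the isotype libraries and 4, 4 and 7 in the anti-CD24 libraries. Per base of gene both fell behind many short RNAs, with ranks of 6 to 14 for 16S and 7 to 19 for 12S. The paper reports EV RNA shorter than either rRNA gene, and the libraries were made without fragmentation. A count may thus be a piece of an rRNA or a whole short RNA. Counts per base therefore need not compare molecules between genes of unlike length.

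As a share of the counts outside rRNA and ribozyme genes, 12S took 5.81%, 7.67% and 7.79% in the isotype libraries and 4.47%, 6.05% and 5.35% in the anti-CD24 libraries. The corresponding shares of 16S were 11.7%, 14.7% and 19.7% with isotype and 11.5%, 15.2% and 9.16% with anti-CD24. The groups overlapped for both genes, with 12S at a mean of 7.09% ± 1.11 (SD, n = 3) in isotype and 5.29% ± 0.79 in anti-CD24 samples, and 16S at 15.36% ± 4.04 and 11.96% ± 3.04. The counting error was much smaller than this spread: in the shallowest library the 95% Wilson interval of the 16S share was 14.1% to 15.2%, and it covers counting error only, since the reads carry no molecular identifiers.

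**Figure D1:**
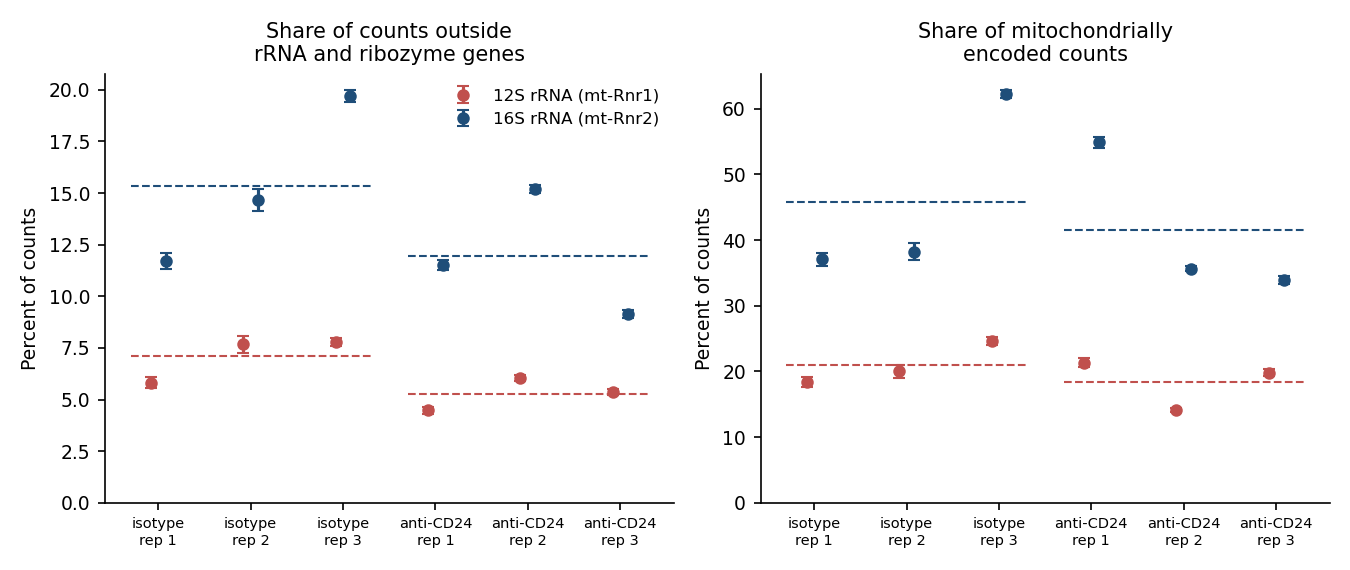
Percent of counts on 12S rRNA (mt-Rnr1, red) and 16S rRNA (mt-Rnr2, blue) in each library, out of the counts outside rRNA and ribozyme genes (left) and out of the counts of the mitochondrial genome (right). Points are single libraries with their 95% Wilson interval and dashed lines are group means; 16S lay above 12S in all 6 libraries, and isotype replicate 3 held the highest 16S share in both panels, 19.7% and 62.3%.

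Whether CD24 stimulation changed how much mitochondrial rRNA the EVs carried was asked with both genes together. Their joint share of the counts outside rRNA and ribozyme genes was 17.5%, 22.3% and 27.5% in isotype replicates 1, 2 and 3, and 15.997%, 21.2% and 14.5% in anti-CD24 replicates 1, 2 and 3. It was lower with anti-CD24 in 3 of 3 replicate pairs, and the differences were -1.52, -1.08 and -12.99 percentage points in replicates 1, 2 and 3. The mean was 22.4% ± 5.0 (SD, n = 3) in isotype and 17.2% ± 3.5 (SD, n = 3) in anti-CD24 samples, a difference of -5.20 percentage points. An exact two-sided permutation test between the groups, whose smallest possible p is 0.1 with 3 samples each, gave p = 0.2, and 0.6 after Benjamini-Hochberg adjustment over 3 comparisons. The exact sign-flip test of the 3 pairs gave p = 0.25, the smallest it can give. The difference was thus within the spread between samples. A lower share could reflect fewer vesicles that carry these rRNAs, less rRNA per vesicle or more of other RNAs. In bulk EV RNA these cannot be told apart.

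The direction of this difference depended on what the counts were divided by. Of all counts on genes, the 2 rRNAs made up 1.51%, 2.10% and 2.48% in isotype libraries and 1.69%, 3.23% and 1.49% in anti-CD24 libraries. Their mean share was then 2.03% ± 0.49 (SD, n = 3) in isotype and 2.14% ± 0.95 in anti-CD24 samples, a difference of 0.11 percentage points in the opposite direction (exact permutation p = 0.9). These are shares of counts and not of reads. The alignment kept all best hits, 0 reads were set aside as not unique, and many 5S rRNA genes had identical fitted values. A read that matched several gene copies may therefore enter this denominator more than once. The denominators moved differently among libraries. The 5.8S rRNA gene n-R5-8s1, whose product belongs to the cytosolic large subunit, held 124680 to 577062 counts per library, and the lincRNA gene Gm42418, which lies in the 45S rRNA locus and is not annotated as rRNA, made up 13.5% to 37.0% of the counts outside rRNA. Anti-CD24 replicate 3, which had the lowest joint share of 12S and 16S, had the highest share of Gm42418. Without Gm42418 and its neighbour Gm26917 in the denominator, the share of the mitochondrial rRNAs was 30.4% ± 9.49 (SD, n = 3) in isotype and 22.7% ± 3.08 in anti-CD24 samples, a difference of -7.69 percentage points (exact permutation p = 0.3).

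The count ratio of the mitochondrial rRNAs to Gm42418 was 0.987, 1.05 and 0.882 in isotype libraries and 1.19, 1.46 and 0.392 in anti-CD24 libraries. The isotype libraries lay close together, and the anti-CD24 libraries lay on both sides of them. Their ratio to n-R5-8s1 was 0.0214, 0.0280 and 0.0328 in isotype libraries and 0.0231, 0.0724 and 0.0282 in anti-CD24 libraries. Anti-CD24 replicate 2 stood highest there, and the other 5 libraries overlapped. Exact permutation tests of the log2 ratios gave p = 1.0 for Gm42418 and p = 0.6 for n-R5-8s1. These comparisons were chosen after the values were seen, as were 4 others of the 9 made in all, and the adjusted p over the 9 was 1.0 for each.

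Across all genes, the edgeR quasi-likelihood fit (TMM normalization, 1501 genes that reached 1.0 CPM, a count relative to its library's sum, in at least 3 samples) called 1 gene at an adjusted p under 0.05, 0.0666% of those tested. That gene was Zfp260, a zinc finger gene named here because it was the only call, with 1121 counts in isotype replicate 1, 0 in the other isotype libraries, and 0, 4 and 3 in the anti-CD24 libraries. With the replicate number as a block the count of calls was 0, and 20 genes had an unadjusted edgeR p under 0.05. At an unadjusted p under 0.05 the fit listed 119 genes (7.93%), and 184 genes (12.3%) had CPM that did not overlap between the groups. Neither rRNA was among any of these.

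On the CPM scale 12S stood at 5006, 7211 and 7033 in isotype libraries and 4732, 9200 and 5486 in anti-CD24 libraries. The anti-CD24 libraries held both the lowest and the highest of the 6 values. The log2 fold change of 12S, anti-CD24 over isotype, was 0.27 with a standard error of 0.74 (edgeR adjusted p = 0.88). For 16S the CPM were 10096, 13784 and 17788 in isotype libraries and 12207, 23124 and 9387 in anti-CD24 libraries. Again both extremes were anti-CD24 libraries, replicate 2 at the top and replicate 3 at the bottom. The log2 fold change of 16S was 0.22 with a standard error of 0.76 (edgeR adjusted p = 0.92).

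These fitted values had no stable sign. The median log2 fold change of all 1501 genes was -0.29, so 12S stood 0.56 and 16S 0.51 above it. With DESeq2 and its size factors the median of all genes was -0.97, and the log2 fold changes were -0.38 for 12S and -0.43 for 16S, 0.59 and 0.54 above that median. Restricted to the 134 genes with at least 10 counts in every library, the edgeR values were -0.84 for 12S and -0.78 for 16S, both with an adjusted p of 0.99 (unadjusted edgeR p of 0.025 and 0.083). The median of those 134 genes was 0.011, and the rRNAs differed from it by -0.85 and -0.79. Leaving out isotype replicate 2 gave -0.21 and -0.31, and leaving out anti-CD24 replicate 2 gave -0.16 and -0.30. In these fits 12S and 16S still stood above the median of all tested genes. They did so by 0.16 and 0.067 without isotype replicate 2, and by 0.33 and 0.19 without anti-CD24 replicate 2. Without anti-CD24 replicate 1 the log2 fold changes were 0.74 and 0.67, with edgeR adjusted p of 0.54 and 0.57. Neither rRNA passed the threshold in any of these fits.

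**Figure D2:**
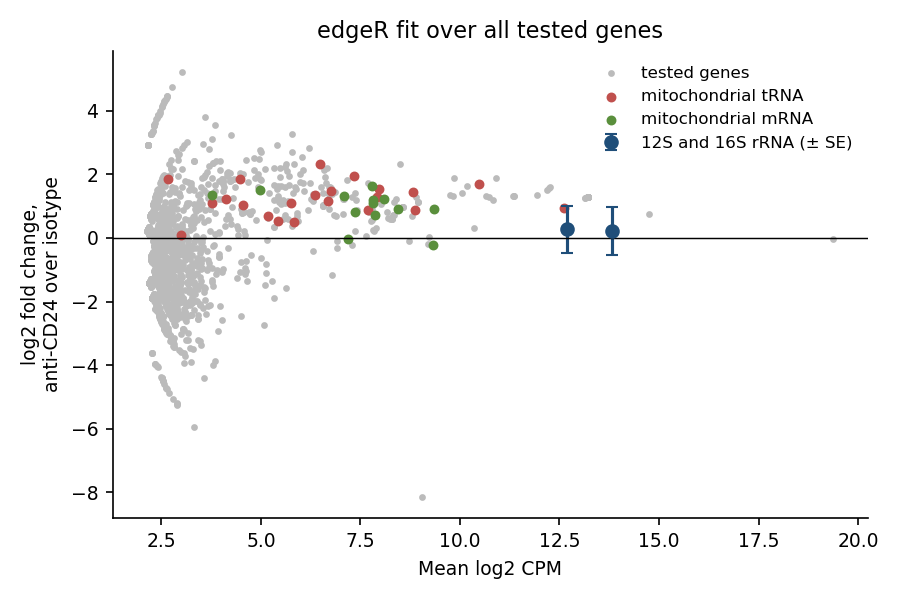
The log2 fold change, anti-CD24 over isotype, of every gene tested by edgeR against its mean log2 CPM, with mitochondrial tRNAs in red, mitochondrial mRNAs in green, and 12S and 16S rRNA in blue with their standard errors. The 2 rRNAs lay at 0.27 and 0.22, with error bars that cross 0, while most other genes of the mitochondrial genome lay above them.

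The ratio of the 2 rRNAs to each other does not depend on depth or on a denominator. There were 2.02, 1.91 and 2.53 counts of 16S for each count of 12S in isotype replicates 1, 2 and 3, and 2.58, 2.51 and 1.71 in anti-CD24 replicates 1, 2 and 3. The mean was 2.21 ± 0.38 (SD, n = 6), where the gene lengths alone stand in a ratio of 1.66. Per base of gene the 16S to 12S ratio was 1.22, 1.15 and 1.53 in isotype libraries and 1.56, 1.52 and 1.03 in anti-CD24 libraries, with a mean of 1.33 ± 0.23 (SD, n = 6). Thus 16S was ahead of 12S per base in 6 of 6 libraries. The exact 95% interval of the per-base ratio lay above 1 in 5 of them and ran from 0.995 to 1.07 in anti-CD24 replicate 3. There were 3 libraries that stood close together at 1.52 to 1.56, among them 1 isotype and 2 anti-CD24 libraries, and the other 3 lay between 1.03 and 1.22.

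The mean log2 of the 16S to 12S count ratio was 1.10 ± 0.21 (SD, n = 3) in isotype and 1.16 ± 0.33 (SD, n = 3) in anti-CD24 samples, a difference of 0.062 (exact permutation p = 0.9, adjusted p = 0.9 over 3 comparisons). The pairs differed in direction, with differences of 0.36, 0.39 and -0.56 in replicates 1, 2 and 3. The SD of this log2 ratio over the 6 libraries, 0.25, was 4.90 times the largest counting error of a single library, 0.051. With counts summed over each group the difference was -0.038, and it was -0.018, -0.043 and -0.024 without isotype replicate 2, anti-CD24 replicate 1 and anti-CD24 replicate 2.

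**Figure D3:**
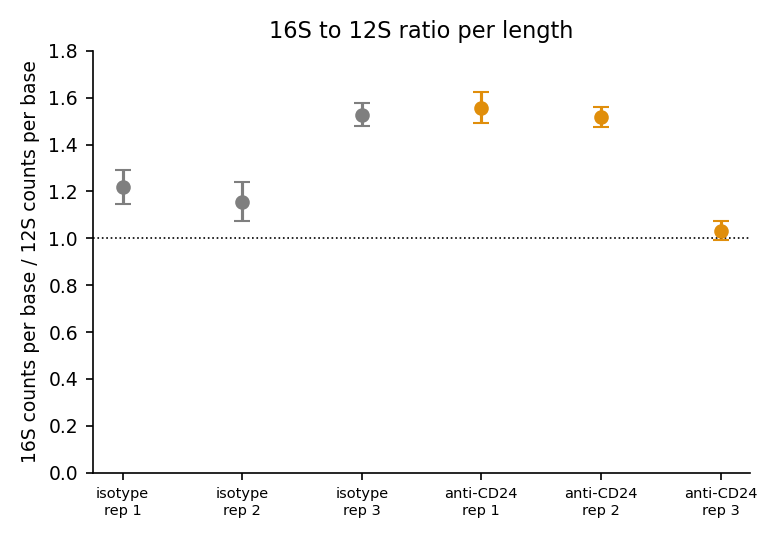
The 16S to 12S ratio of counts per base of gene in each library, isotype in grey and anti-CD24 in orange, with exact 95% intervals from the counts and a dotted line at 1. All 6 points lay between 1.03 and 1.56, and only the interval of anti-CD24 replicate 3 reached below 1.

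Among the transcripts of the mitochondrial genome the 2 rRNAs had more counts than the 22 tRNAs together in each of the 6 libraries. Together they made up 55.5%, 58.3% and 86.9% of mitochondrially encoded counts in isotype libraries and 76.2%, 49.8% and 53.8% in anti-CD24 libraries. The mean was 66.9% ± 17.4 (SD, n = 3) in isotype and 60.0% ± 14.2 (SD, n = 3) in anti-CD24 samples. The difference of -6.94 percentage points was smaller than the SD of either group (exact permutation p = 0.5, adjusted p = 0.75 over 3 comparisons). Anti-CD24 was higher in the pair of replicate 1, by 20.8 points, and lower in the other pairs. Isotype replicate 3 decided the direction, for without it the difference was 3.06 percentage points. The share of 12S alone varied less, from 14.2% to 24.6%, than that of 16S alone, from 33.9% to 62.3%.

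The 22 tRNA genes, which carry amino acids to the mitochondrial ribosome, made up more of the remainder than the mRNAs in each of the 6 libraries. Their share of mitochondrially encoded counts was 36.4%, 28.2% and 8.01% in isotype libraries and 18.01%, 42.9% and 32.1% in anti-CD24 libraries. The 13 mRNAs, which encode subunits of the respiratory chain and the ATP synthase, took 8.15%, 13.5% and 5.09% in isotype libraries and 5.75%, 7.22% and 14.1% in anti-CD24 libraries. The tRNA share was lowest in the libraries in which the rRNA share was highest, isotype replicate 3 and anti-CD24 replicate 1, as shares of 1 total must in part offset each other.

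There were 1.53, 2.07 and 10.9 counts of the rRNAs for each tRNA count in isotype libraries and 4.23, 1.16 and 1.67 in anti-CD24 libraries. Relative to the mRNAs, counts per base of the rRNAs were 30.6, 19.4 and 76.8 times higher in isotype libraries and 59.6, 31.0 and 17.1 times higher in anti-CD24 libraries. Both ratios spread widely within each group, and the exact permutation test of their logs gave p = 0.6 for tRNAs and p = 0.8 for mRNAs. In the edgeR fit 0 of 2 rRNAs, 0 of 22 tRNAs and 0 of 13 mRNAs were called, against 1 of the 1501 genes tested; at an unadjusted edgeR p under 0.05 there were 0 of 2 rRNAs, 3 of 22 tRNAs and 1 of 13 mRNAs, against 119 of the 1501 genes (7.93%). The median log2 fold change was 0.24 over the rRNAs, 1.20 over the tRNAs with a range of 0.08 to 2.33, and 1.10 over the mRNAs with a range of -0.22 to 1.65, where the median over all genes was -0.29. The lowest edgeR adjusted p was 0.49 among the tRNAs and 0.55 among the mRNAs. With DESeq2 the medians were -0.41 over the rRNAs, 0.51 over the tRNAs and 0.40 over the mRNAs, with 0 calls in each class and -0.97 as the median over all genes. Without anti-CD24 replicate 1, the library with the hemoglobin counts, edgeR called 0 of 2 rRNAs, 7 of 22 tRNAs and 1 of 13 mRNAs, against 47 of the 1119 genes tested (4.20%), and the medians of the classes were 0.70, 2.00 and 1.71. The median over all genes tested was then -0.099. Among the 134 genes with at least 10 counts in every library, the medians were -0.81 over the 2 rRNAs, 0.45 over 10 tRNAs and -0.43 over 11 mRNAs. The median over all 134 was 0.011, so the rRNA and mRNA medians lay below it and the tRNA median above it. The genes of the mitochondrial genome share transcripts and libraries, and their values do not count as separate evidence.

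Ordered by counts per base, with the mean over both rRNAs set to 100% in each library, 16S and 12S were numbers 3 and 4 of the 37 genes. This order depends on gene length, with the limit on counts per base given above. The methionine tRNA mt-Tm came first with 1130%, and it exceeded both rRNAs in 6 of 6 libraries, at levels that varied from 209% to 1780%. The valine tRNA mt-Tv came next with 240%, but its level ran from 45.8% to 486%, and it exceeded 16S in 4 and 12S in 5 of 6 libraries. They were followed by 16S at 110% ± 6.08 and 12S at 83.7% ± 10.1 (SD, n = 6). The SDs of the 2 rRNAs are small by the choice of scale, since their joint level is the reference. The glutamine tRNA mt-Tq followed directly after 12S with 83.1% ± 54.0 and exceeded it in 2 of 6 libraries, so that their order was within the spread. The most abundant mRNA per base was mt-Atp8, a subunit of the ATP synthase, with 40.3% and a range of 14.3% to 93.1%. Its gene overlaps mt-Atp6, reads on the overlap were assigned to neither, and its level is uncertain for that reason. Of 222 gene and library pairs, 8 had no count, in 4 genes.

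**Figure D4:**
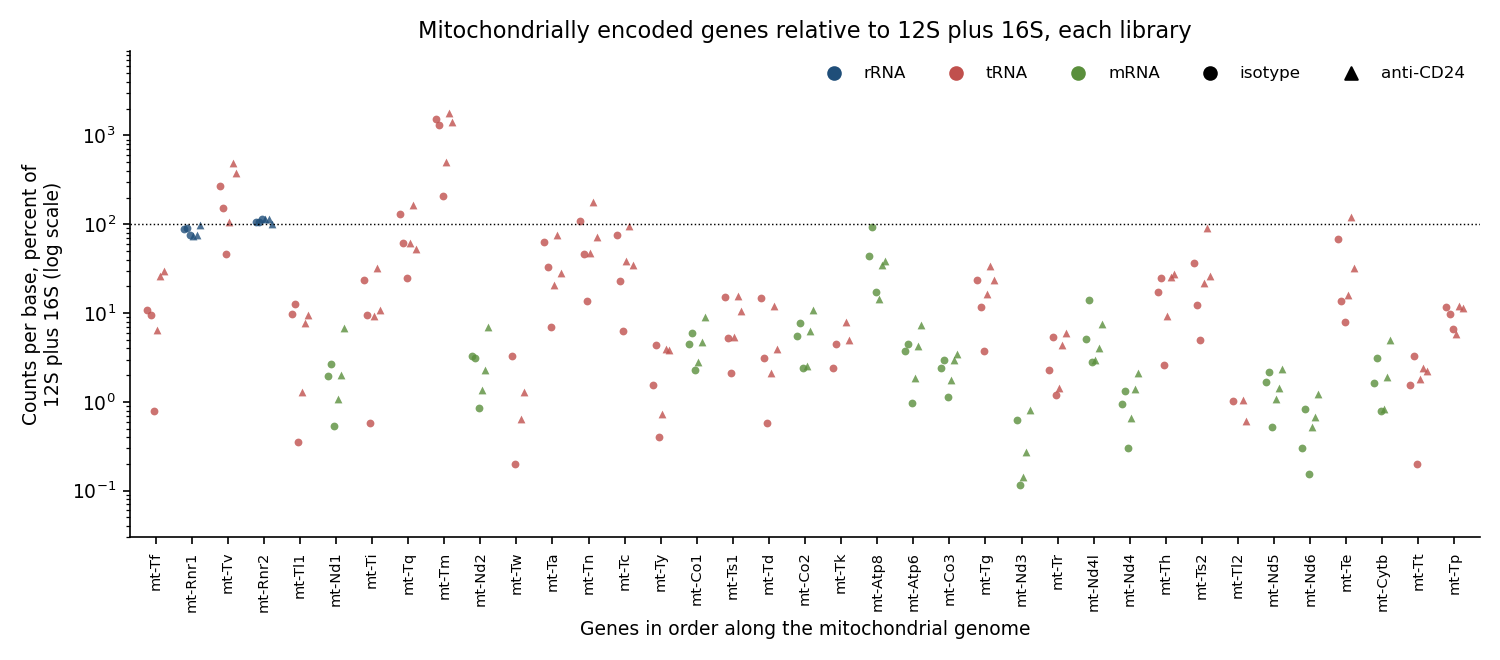
Counts per base of each of the 37 genes of the mitochondrial genome, in genome order, as a percent of the counts per base of 12S plus 16S in the same library (log scale, dotted line at 100%). Circles are isotype and triangles anti-CD24 libraries, and 8 points with no count are not drawn. The 2 rRNAs (blue) lay at 74.2% to 116%, near 100% by construction because they are themselves the reference. The points of mt-Tm ran from 209% to 1780%.

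The tRNA between the rRNAs varied more among libraries than they did. The counts of mt-Tv, which lies between 12S and 16S, were 358, 143 and 236 in isotype libraries and 302, 3148 and 1218 in anti-CD24 libraries. Anti-CD24 replicates 2 and 3 were high, and the groups overlapped through replicate 1. For each count of 12S plus 16S there were 0.0735, 0.0410 and 0.0124 counts of mt-Tv in isotype libraries and 0.0292, 0.132 and 0.103 in anti-CD24 libraries. The log2 of this ratio was on average 1.14 higher with anti-CD24, with an exact permutation p of 0.4. The edgeR log2 fold change of mt-Tv was 1.71 with a standard error of 0.74 (adjusted p = 0.54). Length sets these tRNAs apart as well, since mt-Tv has 69 bases against 955 and 1582 in the rRNAs.

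The outer neighbours gave few counts. The counts of mt-Tf, before 12S, were 14, 9 and 4 in isotype libraries and 18, 165 and 94 in anti-CD24 libraries. This was the member of the mitochondrial genome with the largest fitted change, a log2 fold change of 2.33 with a standard error of 0.91 and an edgeR adjusted p of 0.49; its CPM overlapped between the groups. The counts of mt-Tl1, after 16S, were 14, 13 and 2 in isotype libraries and 4, 54 and 33 in anti-CD24 libraries, with a log2 fold change of 0.52 (edgeR adjusted p = 0.85). Per base, mt-Tf reached 13.9% and mt-Tl1 6.85% of the rRNAs on average, against 240% for mt-Tv.

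To find the genes whose level went most nearly with each rRNA, the SD of the log2 count ratio over the 6 libraries was computed for the 133 other genes with at least 10 counts in every library. A low SD means a near constant ratio. The gene nearest to 12S was 16S and the gene nearest to 16S was 12S, with an SD of 0.25, while the median SD over the 133 genes was 0.73 for 12S and 0.79 for 16S. Next to 12S came Rpph1 with 0.30, n-R5s33 with 0.37, n-R5s136 with 0.38 and Rmrp with 0.41. Next to 16S came Rmrp with 0.31, Rpph1 with 0.38, n-R5s136 with 0.38 and n-R5s33 with 0.51. Thus the same 4 nuclear genes followed in both orders. Rpph1 is the RNA of nuclear ribonuclease P, Rmrp is the RNA of ribonuclease MRP, and n-R5s33 and n-R5s136 are 5S rRNA genes, whose counts are uncertain because near-identical copies share reads.

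The counts of Rpph1 were 62, 39 and 150 in isotype libraries and 70, 242 and 102 in anti-CD24 libraries, and those of Rmrp were 45, 26 and 164 and then 88, 133 and 66. Isotype replicate 3 and anti-CD24 replicate 2 held the 2 highest counts of both, as they did for 12S and 16S. The places of other genes of the mitochondrial genome varied. The mRNA mt-Co1, of cytochrome c oxidase, was number 13 of 133 for 12S with an SD of 0.58 and number 67 for 16S with an SD of 0.79, while mt-Tm was number 114 for 12S and 120 for 16S, and mt-Tv was number 118 with an SD of 1.21 and number 123 with an SD of 1.31. These values describe 6 libraries that share preparation and differ in depth. They say nothing of where or how the RNAs are made.

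**Figure D5:**
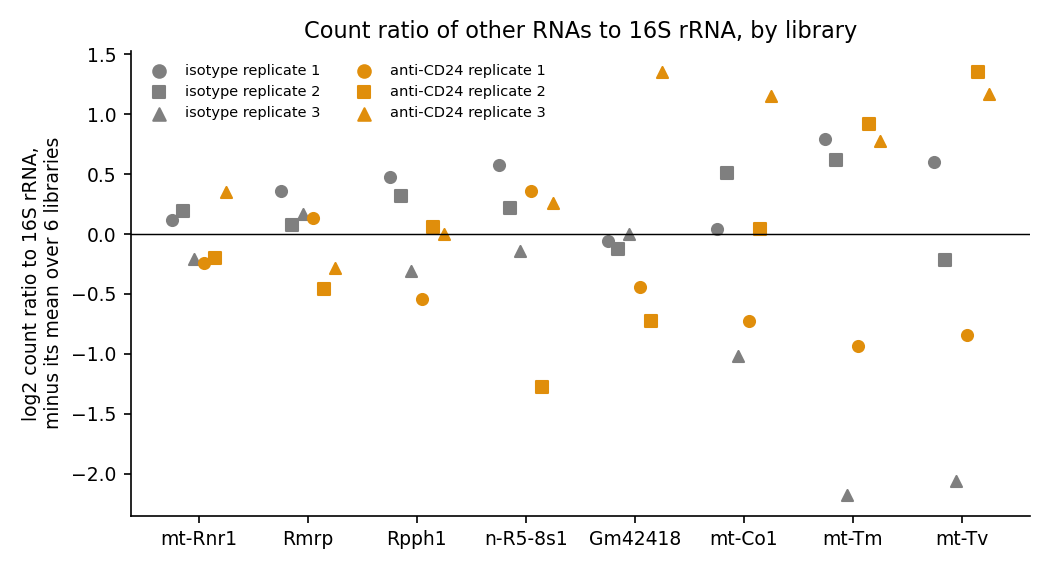
The log2 count ratio of 8 RNAs to 16S rRNA in each library, minus its mean over the 6 libraries, with isotype libraries in grey and anti-CD24 libraries in orange. The points of mt-Rnr1 (SD 0.25), Rmrp (SD 0.31) and Rpph1 (SD 0.38) lay close to 0, while mt-Tv (SD 1.31) spread widely, with isotype replicate 3 lowest.

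The nuclear genes that serve the mitochondrial rRNAs left almost no counts, which was not particular to them. Of all 47729 genes, 9700 had a count in some library and 1501 passed the filter for the edgeR fit. Of 80 genes for proteins of the mitochondrial ribosome, 24 had a count in some library, 0 had one in every library and 0 passed the filter for the edgeR fit. They gave 39 counts in all, 3 to 16 per isotype library and 2 to 10 per anti-CD24 library, next to 73267 counts of the rRNAs. The highest were Mrpl55, a large subunit protein, with 5 counts and Mrps23, a small subunit protein, with 4. Of 14 genes for transcription and upkeep of the mitochondrial genome, 3 had a count, with 9 counts in all. The only one tested was Polg, the catalytic subunit of the mitochondrial DNA polymerase, with 2, 0 and 2 counts in isotype and 0, 3 and 0 in anti-CD24 libraries and a log2 fold change of -1.16 with a standard error of 1.45 (edgeR adjusted p = 0.75). Polrmt, the mitochondrial RNA polymerase, had 1 count, and Polg2, the accessory subunit of the DNA polymerase, had 1.

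Of 23 genes for processing and modification of mitochondrial rRNA and for ribosome assembly, 4 had a count, with 7 counts in all. Hsd17b10, a subunit of mitochondrial ribonuclease P, Mtg1, a GTPase of ribosome assembly, and Trmt61b, a methyltransferase of mitochondrial RNA, had 2 counts each. A count of 0 in a library allows an expected count of up to 3, and a change in these genes was not detectable at this depth.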

How the data were processed

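Whole EV RNA of 3 isotype and 3 anti-CD24 samples, described as biological replicates, was read on an IonTorrent PGM. After trimming (FASTX toolkit) and alignment with tmap, which kept all best hits, the authors counted reads on the exons of Ensembl genes by htseq-count in union mode and deposited these raw counts without normalization. The submitters' processing notes name HTSeq 0.5.4p5 and GRCm38.p4, and the methods a later patch of the same build. Union mode drops reads that touch more than 1 gene, which lowers counts at the borders of adjoining genes. No per-sample column was left without a sample (0 columns), and positions of reads within the genes were not analysed here.

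Symbols, biotypes, lengths and the printed sequences came from GENCODE M21 (GRCm38); it lacked 419 of the 47729 genes, which held 5 to 48 counts in a library. Genes with at least 1.0 CPM in 3 or more samples entered the quasi-likelihood test of edgeR 4.0.16 (R 4.3.3), with TMM factors of 0.512 to 1.37, condition as the only term and Benjamini-Hochberg adjustment at 0.05. Standard errors were taken as the size of the log2 fold change divided by the root of its F. Shares and ratios within a library were compared by exact permutation and sign-flip tests, shares of single libraries have 95% Wilson intervals and the 16S to 12S ratio exact binomial intervals. Similar transcripts were sought with BLAST+ 2.17.0. Other steps used Python 3.11.15, numpy 2.4.6, pandas 2.3.3 and scipy 1.17.1. The edgeR test was tried on simulated counts with large changes, and the permutation and sign-flip tests on values with known answers. Smaller changes were not simulated, so these trials do not show what size of change could be detected here.

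The replicate numbers pair the samples, since the run names give each isotype library and the anti-CD24 library of the same number the same run. Their log2 CPM (pseudocount 1), each minus its group's mean, correlated at -0.030, -0.024 and -0.11 in replicates 1, 2 and 3. As alternatives DESeq2 1.42.0, the exact test of edgeR, a replicate block, other normalizations, filters, denominators and scales, pooled counts and the omission of each sample in turn were tried.

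The genes named are both rRNA genes, the 3 tRNA genes beside them, the most abundant mitochondrial tRNA and mRNA per base, the 5 genes nearest to each rRNA by the SD of the log2 ratio, n-R5-8s1 and Gm42418, and the 2 highest genes of each list; mt-Tq, mt-Atp6, mt-Co1, Gm26917, Zfp260, Ptprc and genes tied in a list were added after values were seen. The members and lists were chosen with earlier results of these data known.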

Additional observations from a re-analysis of the deposited data

How the results depend on the processing

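The direction of the 2 rRNAs between conditions was not stable, and neither passed the threshold in any fit, so these values set no direction. The log2 fold change, 0.27 for 12S and 0.22 for 16S, was -0.38 and -0.43 with DESeq2, -0.84 and -0.78 with at least 10 counts in every sample, and ran from -0.21 to 0.74 and from -0.31 to 0.67 with 1 library left out. With the replicate block it was 0.22 and 0.28 (edgeR adjusted p = 0.99 for both), without TMM 0.0088 and 0.098, and with rRNA and ribozyme genes removed 0.71 and 0.67. Relative to the median of all tested genes, both rRNAs stood higher in every fit except that with at least 10 counts in every sample. The causes were not tested. The number of genes past the threshold, 1, was 0 with DESeq2, 0 with the replicate block and 0 with at least 10 counts in every sample (95, 20 and 3 genes at an unadjusted p under 0.05), 2 without a filter, and 0 to 47 with 1 library left out. The 47 genes, 46 of them higher with anti-CD24, were called without anti-CD24 replicate 1.

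The difference in the joint share of counts outside rRNA, -5.20 percentage points, was 0.107 with all counts on genes as denominator and 0.062 with reads on no feature added, where the denominator itself changed, and -7.66 to -2.67 with 1 library left out. That in the share of mitochondrially encoded counts, -6.94, was -15.1 to 3.06 with 1 library left out, positive only without isotype replicate 3, -19.5 with pooled counts, and -1.10 without tRNA genes in the denominator. The difference in the log2 ratio of 16S to 12S, 0.062, was -0.038 with pooled counts and -0.043 to 0.25 with 1 library left out. The sign-flip tests of the replicate pairs, as the block of these 3 comparisons, gave exact p of 0.25, 0.75 and 1.0. With 3 pairs their smallest p is 0.25, so they could make no call. The mean of paired differences equals the difference of group means, so pairing could not move -5.20, -6.94 and 0.062. With 3 samples a group, the exact permutation test cannot reach 0.05, and the smallest library had 166129 counts.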

Other observations

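Nuclear transcripts that resemble the rRNAs could share their reads. No GENCODE M21 transcript outside the mitochondrial genome matched 12S at a BLAST e-value of at most 1e-05. In all 2 nuclear genes matched 16S. A transcript of Gm20594, on chromosome 6, was 88.4% identical on the same strand over an alignment of 439 bases, to bases 645 to 1077 of 16S. Its counts were 1, 1 and 2 in isotype libraries and 1, 6 and 0 in anti-CD24 libraries. A transcript of Cep295, on chromosome 9, was 78.7% identical over 661 bases on the opposite strand, and had 0 counts in all 6 libraries. With the counts of both genes added to 16S, the difference in the log2 ratio of 16S to 12S between conditions remained 0.062. Copies outside annotated transcripts were not searched here.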
